A study of Homo sapiens with 6 samples.

Results

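The CCAAT/enhancer-binding proteins (C/EBPs) are transcription factors that bind DNA as dimers through a basic leucine zipper (bZIP), and the genes described here are the 6 that carry the family symbol, CEBPA, CEBPB, CEBPD, CEBPE, CEBPG and CEBPZ. They were chosen by symbol and with their response to panobinostat already known, so the differences between arms given for them are a description. Of the 6, 5 had a row among the 22718 genes of the deposited tables, and all 5 passed the filter on low counts. CEBPE had no row and was not analysed here.

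The libraries were total RNA of cells labelled HT1197, an established human bladder carcinoma line. The cells had been kept for 48 hours with panobinostat, an inhibitor of histone deacetylases, at 2 times the IC50 of the line, or with vehicle at 1% DMSO. There were 3 panobinostat and 3 vehicle libraries, named A, B and C in each arm, all from the same line, and the condition field calls the vehicle libraries untreated. The labels do not tie a library to a dish, so what p-values measure here is the spread between samples, possibly a technical one. Totals ran from 13417898 to 18186087 counts, and library A of either arm lay farther from the other libraries of its arm than these lay from each other.

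The labelled cell type was at odds with its markers. Of 21 urothelial markers 12 had a row and 5 passed the filter on low counts. UPK1B, TP63 and FOXA1 had 0 counts in the vehicle libraries and 19, 32 and 12 counts in the panobinostat libraries. GATA3, which urothelium and sympathetic neuroblasts both express, was the urothelial marker with the highest level, 9.15 ± 2.21 FPKM with panobinostat and 10.6 ± 1.93 FPKM with vehicle (SD, n = 3 each). FPKM is a read count per length of transcript and per depth. Of 16 markers of adrenergic neuroblasts, 14 reached 10 FPKM or more with vehicle, and MYCN stood at 579 ± 22.5 FPKM with panobinostat and 832 ± 67.3 FPKM with vehicle. The neuroblast markers summed to 1670 to 1770 FPKM with panobinostat and 2010 to 2260 FPKM with vehicle. Of 15 neuroblast markers tested 11 fell and 1 rose, against 31.5% and 33.7% of all 16084 tested genes that fell and rose (edgeR quasi-likelihood test, Benjamini-Hochberg adjusted p of 0.05 or less). The urothelial markers summed to 14.2 to 17.6 FPKM with panobinostat and 13.1 to 17.2 FPKM with vehicle. The part of these markers in the results below was not tested. Every value below is of the libraries labelled HT1197. In such bulk samples, fewer cells of a type and less RNA per cell cannot be told apart.

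CEBPA, CEBPB and CEBPD are activators known for driving differentiation, of granulocytes and liver cells (CEBPA) and of fat cells (all 3), while CEBPB and CEBPD also answer inflammatory cytokines and glucocorticoids. CEBPE acts late in granulocyte maturation. CEBPG has no strong activation domain of its own and pairs with other bZIP proteins such as ATF4. CEBPZ carries the family name but is no bZIP protein: it belongs to the family of yeast Noc1, which acts in ribosome assembly.

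CEBPA (chr19:33299934-33302564, minus strand) and CEBPB (chr20:50190734-50192689, plus strand) are genes of 1 exon in GENCODE 29 on GRCh38. CEBPG (chr19:33373330-33382686, plus strand) has 2 exons, lies 70.8 kb from CEBPA and points away from it. CEBPZ (chr2:37201612-37231713, minus strand) has transcripts of 2 to 16 exons. The 250 bases before the RefSeq start of CEBPA and before the second RefSeq start of CEBPB (GRCh38.p14) are printed. These genes were the only members higher on average with panobinostat. Capitals mark matches on either strand to the TATA box (TATAAA), the CCAAT box and the core of a cyclic AMP element (TGACG), and both sequences run 5′ to 3′ along their gene. Distances are from the RefSeq start, which is not the GENCODE start.

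CEBPA, chr19:33302535-33302784, minus strand: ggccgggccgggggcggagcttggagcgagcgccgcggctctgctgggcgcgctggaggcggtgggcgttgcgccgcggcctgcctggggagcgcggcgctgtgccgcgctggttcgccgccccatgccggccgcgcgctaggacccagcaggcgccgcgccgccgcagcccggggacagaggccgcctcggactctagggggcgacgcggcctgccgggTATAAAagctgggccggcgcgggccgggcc

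CEBPB, second RefSeq start, chr20:50190580-50190829, plus strand: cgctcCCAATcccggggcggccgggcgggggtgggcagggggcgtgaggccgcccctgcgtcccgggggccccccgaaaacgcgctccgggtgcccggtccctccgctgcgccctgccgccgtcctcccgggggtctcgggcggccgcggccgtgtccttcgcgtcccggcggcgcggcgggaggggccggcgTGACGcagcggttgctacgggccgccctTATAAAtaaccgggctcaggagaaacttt

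The CEBPA sequence was 81.2% G and C and the CEBPB one 77.6%. Each held a TATAAA close to its start, beginning 30 bases before it in CEBPA and 29 bases before it in CEBPB. That motif was found in 10.8% of 34943 RefSeq promoters of this length. CEBPB also held CCAAT 245 bases before its start (32.0% of promoters) and the cyclic AMP core 57 bases before it (21.2% of promoters). The GC box GGGCGG matched in both (42.5% of promoters) and is left in lower case. The other motifs searched were TTGCGCAA, the palindrome that C/EBP dimers bind (0.132% of promoters), TGATGCAA, the core of the composite site for C/EBP with ATF4 (0.776%), TGACGTCA (1.63%), which contains TGACG, TTCCNGGAA (0.967%) and CACGTG (6.32%). Of these, TGATGCAA occurred once, 42 bases before the second RefSeq start of CEBPG, and the others were not in the windows of CEBPA, CEBPB, CEBPE, CEBPG or CEBPZ. A match is a string of letters in these windows and not a site shown to be bound.

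CEBPD, a gene of 1 exon on chromosome 8, was the member that differed most between the arms. It stood at 1.03, 1.25 and 1.16 FPKM in panobinostat libraries A, B and C, against 12.1, 13.0 and 12.8 FPKM in vehicle libraries A, B and C. All 3 panobinostat libraries lay far below all 3 vehicle libraries, and libraries varied by 9.86% of the mean with panobinostat and 4.41% with vehicle. The counts behind these levels were 30, 44 and 46 with panobinostat and 377, 505 and 505 with vehicle. Scaled to library size by TMM, the mean was 2.40 ± 0.237 CPM (counts scaled to the library) with panobinostat and 28.6 ± 1.26 CPM with vehicle. The log2 fold change, panobinostat over vehicle, was -3.56 ± 0.13 (SE), or 11.8-fold lower with panobinostat. From the summed counts alone the difference was 11.9-fold, with a 95% interval of 9.85 to 14.4 that covers counting error only. Of the 16084 genes tested, 13 had a lower log2 fold change than CEBPD.

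CEBPA lay on the opposite side. Its level was 4.05, 5.75 and 5.75 FPKM in panobinostat libraries A, B and C, against 2.08, 2.06 and 1.93 FPKM in vehicle libraries A, B and C. Every panobinostat library exceeded every vehicle library, with library A the lowest of its arm. The mean was 13.1 ± 2.55 CPM with panobinostat and 5.54 ± 0.196 CPM with vehicle, a log2 fold change of 1.25 ± 0.16 or 2.39-fold. The variation between libraries was 19.4% of the mean with panobinostat and 3.54% with vehicle. The log2 fold change was 1.40 without panobinostat library A and 1.17 without panobinostat library C. Of the tested genes, 2206 had a higher log2 fold change.

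CEBPB overlapped between the arms. It had 31.2, 35.1 and 34.3 FPKM in panobinostat libraries A, B and C and 32.5, 29.1 and 21.4 FPKM in vehicle libraries A, B and C. The lowest of the 6 was vehicle library C, and vehicle library A exceeded panobinostat library A. The log2 fold change of 0.17 ± 0.12 came to 0.01 without vehicle library C. CEBPB mRNA is translated from several start codons into activating and inhibitory proteins, which these counts do not separate.

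CEBPG kept a narrow range. It had 43.0, 43.3 and 41.4 FPKM in panobinostat libraries A, B and C and 44.5, 48.2 and 40.2 FPKM in vehicle libraries A, B and C. On the FPKM scale the arms overlapped. In TMM-scaled CPM they did not, at 178 to 183 CPM with panobinostat and 185 to 223 CPM with vehicle, and the log2 fold change was -0.17 ± 0.08. CEBPZ behaved in the same way between scales. Its 62.1, 62.0 and 64.8 FPKM in panobinostat libraries A, B and C overlapped the 63.5, 86.7 and 76.6 FPKM in vehicle libraries A, B and C, where library A was the lowest. In TMM-scaled CPM it ran from 216 to 229 with panobinostat and 237 to 329 with vehicle, with a log2 fold change of -0.38 ± 0.10, which was -0.50 without vehicle library A and -0.27 without vehicle library B. Upper quartile scaling and library size alone gave overlapping arms for CEBPG and CEBPZ.

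Of the 5 members with a row, 1 had all 3 panobinostat libraries above the vehicle libraries, 3 had all of them below and 1 overlapped, in TMM-scaled CPM. Over all 16084 tested genes 68.8% had arms that did not overlap, 35.5% higher with panobinostat and 33.4% lower. Nothing is read from these counts, since this contrast was known when the members were chosen. In FPKM and in CPM scaled by upper quartile or by library size alone, CEBPA and CEBPD were the members with arms apart.

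**Figure D1:**
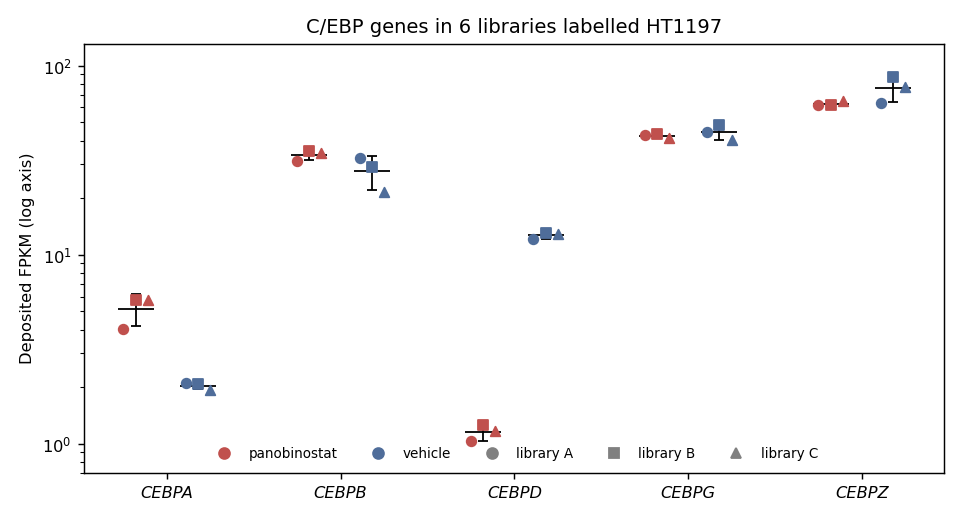
Deposited FPKM (log axis) of the 5 C/EBP genes with a row, with panobinostat libraries at left and vehicle libraries at right of each gene; markers give the library letter and black bars the mean ± SD of 3 libraries. CEBPD lies at 1.03 to 1.25 FPKM with panobinostat and 12.1 to 13.0 FPKM with vehicle, CEBPA lies higher with panobinostat, and the other 3 overlap on this scale.

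Per length, the order of the members changed at its low end. With panobinostat it ran CEBPZ (mean of 63.0 FPKM), CEBPG (42.6), CEBPB (33.5), CEBPA (5.18) and CEBPD (1.14). With vehicle it ran CEBPZ (75.6 FPKM), CEBPG (44.3), CEBPB (27.6), CEBPD (12.6) and CEBPA (2.02). No neighbours in either order overlapped across their 3 libraries. The ratio of CEBPD to CEBPA in FPKM was 0.253, 0.217 and 0.202 in panobinostat libraries A, B and C, against 5.84, 6.29 and 6.63 in vehicle libraries A, B and C. CEBPA was thus the more abundant of the pair per length in every panobinostat library and CEBPD in every vehicle library.

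The summed level of the 4 bZIP members was 82.4 ± 3.06 FPKM with panobinostat and 86.6 ± 8.91 FPKM with vehicle. The means differed by more than the panobinostat SD and by less than the vehicle SD. Within that sum, CEBPD made up 1.39 ± 0.084% with panobinostat and 14.7 ± 1.84% with vehicle. CEBPA made up 6.27 ± 1.01% with panobinostat and 2.35 ± 0.162% with vehicle. CEBPB held 40.7 ± 1.17% with panobinostat and 31.7 ± 3.80% with vehicle. CEBPG held the largest share in every library, 51.7 ± 2.25% with panobinostat and 51.2 ± 2.10% with vehicle. These are shares of transcripts, and protein levels were not measured.

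**Figure D2:**
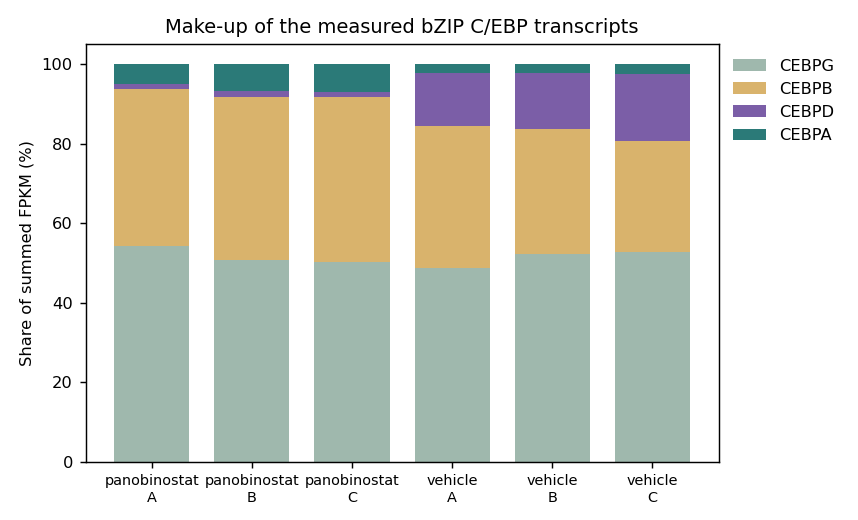
Share of CEBPG, CEBPB, CEBPD and CEBPA in their summed FPKM (stacked bars, percent) in each of the 3 panobinostat and 3 vehicle libraries. The CEBPD share averages 1.39% with panobinostat and 14.7% with vehicle, and the CEBPG share is close to 51% in both arms.

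Transcripts that adjoin the members were not used to choose them and were tested with all other genes (edgeR quasi-likelihood test with Benjamini-Hochberg adjustment, called at an adjusted p of 0.05 or less; 65.2% of the 16084 genes were called, 33.7% rose and 31.5% fell). CEBPA-DT, a non-coding transcript that starts 293 bases upstream of CEBPA on the other strand, had 39, 48 and 60 counts in panobinostat libraries A, B and C and 10, 22 and 12 counts in vehicle libraries A, B and C. It rose by 1.69 ± 0.27 on the log2 scale (adjusted p = 6.42e-05), with all 3 panobinostat libraries above all 3 vehicle libraries. CEBPB-AS1, which overlaps CEBPB on the opposite strand, did not pass the test, at -0.23 ± 0.26. Reads were assigned by strand, so a read counted for one of these transcripts was not counted for its partner. CEBPZOS, which overlaps CEBPZ on the opposite strand, rose to 73.3 ± 5.18 CPM with panobinostat, against 54.3 ± 1.19 CPM with vehicle (log2 0.43 ± 0.08, adjusted p = 0.000179).

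Genes within 250 kb of a member numbered 58 with a row and 41 tested, of which 16 rose and 17 fell, with a median log2 fold change of -0.15. Over all 16084 tested genes 33.7% rose and 31.5% fell, with a median of 0.014. Near CEBPD, 3 neighbours were tested. SPIDR, a DNA repair scaffold whose end lies 603 bases from the end of CEBPD, fell by 0.87 on the log2 scale, and MCM4, a subunit of the replicative helicase, fell by 0.71. PRKDC, the DNA-dependent protein kinase, did not pass at -0.11, though it did at -0.25 (adjusted p = 0.00876) without vehicle library A. CEBPD stood at -3.56, and only 13 of the 16084 tested genes lay lower. Nothing is therefore read from its distance to these 3. Around CEBPA, LRP3 fell by 0.83, GPATCH1 fell by 0.55, RHPN2 rose by 0.62 and PEPD did not pass at -0.15, or -0.24 (adjusted p = 0.0351) without panobinostat library C. CEBPG, which shares neighbours with CEBPA, also had CHST8, a sulfotransferase, which fell by 0.69. Around CEBPB, 4 of 6 tested neighbours rose and 0 fell, too few to set against the shares over all genes. The 4 were LINC01270 (0.78), PEDS1 (0.44), SNAI1, the repressor of E-cadherin (0.40), and RNF114 (0.20). The SNAI1 call was lost without vehicle library B (0.28, adjusted p = 0.0757) or C (0.32, adjusted p = 0.0636), and that of RNF114 without panobinostat library B (adjusted p = 0.051) or C (0.0542) or vehicle library B (0.063) or C (0.0634), and with no filter.

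Beside CEBPZ, EIF2AK2, the interferon-induced kinase PKR, fell by 0.93 and NDUFAF7, a mitochondrial methyltransferase that overlaps the start of CEBPZ on the other strand, fell by 0.31, a call lost with upper quartile scaling. PRKD3, a protein kinase D, rose by 0.65. Around the CEBPE locus on chromosome 14, 17 neighbours were tested although CEBPE itself had no row. Beside 33.7% of all tested genes that rose and 31.5% that fell, 6 of these neighbours rose and 9 fell. Among them LRP10, a lipoprotein receptor relative, had 909 counts with panobinostat and 26 with vehicle (18.2 ± 1.52 CPM and 0.540 ± 0.347 CPM), and passed the filter on low counts through the panobinostat arm. AJUBA, a LIM-domain scaffold, rose by 2.38 and CDH24, a cadherin, fell by 1.58.

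**Figure D3:**
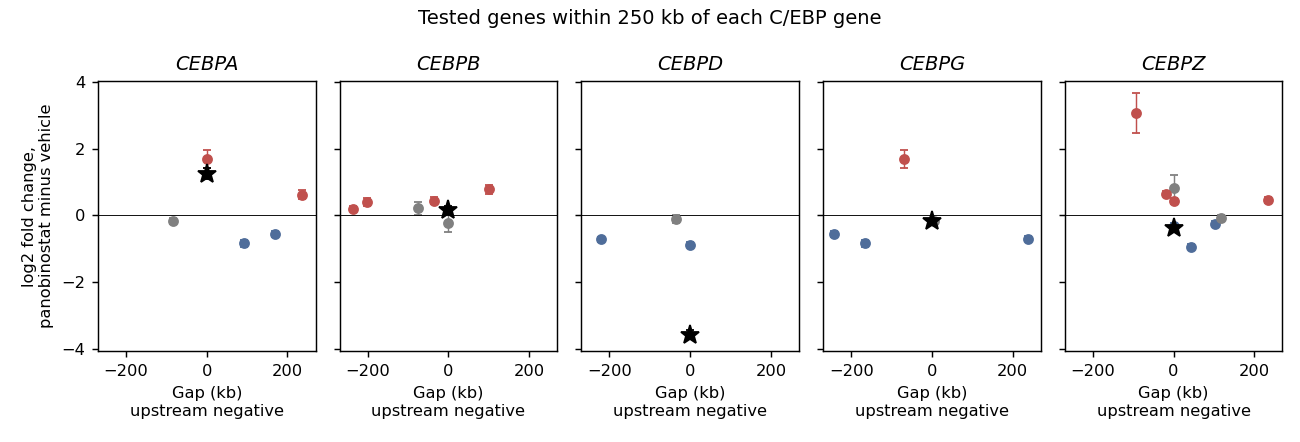
Log2 fold change (panobinostat minus vehicle, ± SE) of tested genes within 250 kb of each C/EBP gene with a row, by the gap to that gene in kb (upstream negative; overlapping genes at 0). Stars are the C/EBP genes (described only), and the panels leave out other C/EBP genes. Red points rose, blue points fell and grey points did not pass. CEBPD lies at -3.56, with 13 of the 16084 tested genes lower, and CEBPA-DT lies beside CEBPA at 1.69.

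The genes most like each member over the 6 libraries were found by the smallest root mean square difference in centred log2 CPM, among the tested genes that averaged at least 10 CPM. CEBPD had few that were close. SLC16A14, a monocarboxylate transporter relative, differed by 0.111, and had 2.89 CPM with panobinostat and 34.9 CPM with vehicle. ARHGAP36, a regulator of protein kinase A and hedgehog signalling, differed by 0.150, and ENSG00000248540 by 0.172. In all, 6 of 9929 genes lay within 0.3 of CEBPD. This measure takes in the difference between the arms, which was known when the members were chosen. SLC16A14, ARHGAP36 and ENSG00000248540 had log2 fold changes of -3.58, -3.29 and -3.41, beside -3.56 for CEBPD. Only 13 of the 16084 tested genes lay lower than CEBPD, so nothing is read from how few were close. Nearest to CEBPA were IFT43, a protein of cilia, RPS18, a ribosomal protein, and TESC, a calcium-binding protein, at 0.062, 0.075 and 0.092. CEBPB lay nearest to CGRRF1 (0.064), CEBPG to NAPG (0.027) and CEBPZ to TARS3 (0.021). Such closeness was common for CEBPG, with 608 genes within 0.1, and for CEBPZ, with 195, while CEBPB and CEBPA had 5 each. Within 0.3 there were 6707 genes for CEBPG, 5747 for CEBPZ, 4480 for CEBPB and 617 for CEBPA.

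The genes around the family were described by 12 lists with 189 symbols other than the members, of which 144 had a row and 130 were tested. In them 45 rose (34.6%) and 55 fell (42.3%), against 33.7% and 31.5% of all tested genes, and the median log2 fold change was -0.10, against 0.014 over all genes. The split depended on scaling: with upper quartile factors 53 rose and 39 fell. Those factors moved the median of all genes by 0.14, so a list median closer to 0 than that has no settled sign. Counts called in each list below are to be read beside the 33.7% and 31.5% of all tested genes. The lists, like the members, were chosen with earlier results of these data known. Their counts, medians and p-values are therefore a description.

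Dimer partners of the C/EBPs moved both ways. Of 19 listed, 17 had a row and 16 were tested, of which 6 rose and 4 fell (2 with upper quartile scaling), with a median of 0.10. FOS, the AP-1 subunit, rose to 10.7 ± 1.68 CPM with panobinostat, against 1.03 ± 0.310 CPM with vehicle (log2 3.37 ± 0.22, adjusted p = 7.79e-09). CREB5, a CRE-binding factor, rose by 2.74 and FOSL2 fell by 1.03. DDIT3 (CHOP), which pairs with C/EBPs and blocks their usual binding and has itself been called C/EBP zeta, rose by 0.71 ± 0.13 (adjusted p = 0.000268). ATF4, the stress-response partner of CEBPG, stood at 340 ± 12.0 CPM with panobinostat and 346 ± 34.2 CPM with vehicle and did not pass. NRL, a photoreceptor bZIP factor, fell by 0.72 (adjusted p = 0.0376), a call lost without panobinostat library A (0.0721) or B (0.185) or vehicle library A (0.0869) or C (0.0705), and also with DESeq2, library size alone, upper quartile scaling or unfiltered FPKM. Among 4 related bZIP factors, HLF rose by 1.02, NFIL3, a repressor, rose by 0.47, TEF fell by 1.21 and DBP did not pass at 0.16, though it did with upper quartile scaling or library size alone.

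Upstream of CEBPB and CEBPD stand the receptors and factors of cytokine, glucocorticoid and cyclic AMP signalling. Of 20 listed, 17 had a row and 15 were tested, of which 7 rose and 5 fell (3 with upper quartile scaling), with a median of 0.01. Receptors of the interleukin-6 family were among those that rose. OSMR, the oncostatin M receptor, had 101 counts with panobinostat and 2 with vehicle, a depth-scaled ratio of 49.2 (13.3 to 411 by counting error), and passed the filter on low counts through the panobinostat arm. LIFR rose by 1.29 and their shared chain IL6ST by 1.09. STAT3, which these receptors activate, rose to 219 ± 15.5 CPM with panobinostat, against 80.4 ± 0.813 CPM with vehicle, and SOCS3, a feedback inhibitor of the pathway, rose by 2.06 ± 0.16 (adjusted p = 4.57e-08). NR3C1, the glucocorticoid receptor, rose by 1.13. NFKB1 fell by 1.45 ± 0.11 and RELA by 0.37, which encode NF-kappaB subunits, and CREB1 fell by 0.56. The RELA call was lost with library size alone, upper quartile scaling and the fits on FPKM.

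Genes that act on C/EBP proteins formed a pair of lists. Of 23 translation and kinase regulators, all tested, 6 rose and 11 fell, with a median of -0.17. With upper quartile scaling 7 fell. EHMT2 (G9a) and the arginine methyltransferases CARM1 and PRMT1, which modify C/EBP proteins, fell by 1.21, 0.95 and 0.90. CELF1, an RNA-binding protein linked to CEBPB translation, fell by 0.72, whereas EIF2AK3 (PERK), a stress kinase, rose by 0.60. Of 8 genes that degrade C/EBP proteins or mark them for it, 6 fell and 0 rose, with a median of -0.42. Over all 16084 tested genes 31.5% fell and 33.7% rose. TRIB1, the adaptor that brings CEBPA to the COP1 ligase, fell to 25.5 ± 0.698 CPM with panobinostat, against 45.3 ± 1.20 CPM with vehicle (log2 -0.83 ± 0.08, adjusted p = 4.44e-07). TRIB2, a second such adaptor, fell by 0.57, SKP2 by 0.69 and SIAH2 by 0.59. COP1 fell by 0.26 and FBXW7 by 0.23. With upper quartile scaling, library size alone or FPKM neither passed, and the FBXW7 call was also lost without panobinostat library B (adjusted p = 0.0865) or vehicle library B (0.0783) or C (0.0651).

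Known C/EBP targets of fat cells were measured in part. Of 16 listed, 11 had a row and 8 were tested, of which 7 rose and 1 fell, with a median of 1.12. The shares over all tested genes were 33.7% and 31.5%. CFD (adipsin) and SLC2A4 (the insulin-responsive glucose transporter) passed the filter on low counts through the panobinostat arm, with 203 counts against 6 and 211 counts against 14, panobinostat against vehicle. PPARG, the fat cell regulator that CEBPB and CEBPD induce in mouse preadipocytes, rose to 8.59 ± 0.517 CPM with panobinostat, against 3.47 ± 0.224 CPM with vehicle (log2 1.31 ± 0.15, adjusted p = 2.42e-06). It was also among the urothelial markers. KLF15 rose by 1.13, DGAT2 by 1.11 and AGPAT2 by 1.02, and SCD fell by 0.48. LIPE rose by 0.63 (adjusted p = 0.0251), a call lost without panobinostat library B (0.0656) or C (0.0746) or vehicle library B (0.115) or C (0.0759), and with DESeq2. Of 6 adipocyte markers 2 had a row, LIPE and FABP4, and they summed to 0.631 to 0.758 FPKM with panobinostat and 0.268 to 0.544 FPKM with vehicle; their part in these differences was not tested.

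Targets of blood and liver were largely without a row. Of 25 acute phase and inflammatory targets 7 had a row and 1 was tested, SOD2, which fell by 0.35; with no filter 3 of the others rose. Of 9 hepatocyte markers 1 had a row, at 0.0467 to 0.105 FPKM with panobinostat and 0 to 0.0297 FPKM with vehicle. Of 16 myeloid targets 5 had a row and 4 were tested. LTF (lactoferrin) had 113 counts with panobinostat and 4 with vehicle, and GFI1, a transcriptional repressor that neutrophil development requires, rose by 1.98 ± 0.24. CSF1R, the macrophage growth factor receptor, had 35 counts with panobinostat and 2 with vehicle, a depth-scaled ratio of 17.0 (4.38 to 146). LYZ (lysozyme) fell, with 21 counts with panobinostat and 72 with vehicle. LTF and CSF1R passed the filter on low counts through the panobinostat arm and LYZ through the vehicle arm. Of 10 myeloid cell markers 4 had a row, and their sum was 0.451 to 0.773 FPKM with panobinostat and 0.636 to 1.15 FPKM with vehicle. CSF1R and LYZ are in both lists, and the part of the markers in the myeloid targets was not tested.

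The amino acid response, in which CEBPG and CEBPB act with ATF4, moved in both directions. Of 20 listed genes, which include CEBPB and CEBPG, 19 were tested, of which 7 rose and 4 fell, with a median of 0.13. With upper quartile scaling 11 rose, and without vehicle library C 7 fell. SLC7A11, the cystine transporter, rose to 198 ± 13.7 CPM with panobinostat, against 86.6 ± 27.4 CPM with vehicle (log2 1.19 ± 0.16, adjusted p = 1.13e-05), and ASNS, asparagine synthetase, rose by 0.84. VLDLR fell by 0.69 and PHGDH, the first enzyme of serine synthesis, fell by 0.46. CHAC1, a glutathione-degrading enzyme, and SESN2 did not pass, at -0.33 and -0.39, but both did with no filter, and without vehicle library C at -0.51 (adjusted p = 0.00602) and -0.63 (adjusted p = 0.000258).

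Of 16 senescence secretory genes tied to CEBPB, 6 had a row and 5 were tested, of which 3 rose and 1 fell, or 2 fell without vehicle library C. IGFBP3 rose by 1.24, CDKN1A (p21) rose by 0.32 and CDKN2A (p16) fell by 0.90. IGFBP5 did not pass at -0.18, or -0.26 (adjusted p = 0.0394) without vehicle library C. Markers of fibroblasts, which also make IGFBP3, moved between the same arms. Of 8 tested, 5 rose and 3 fell, against 33.7% and 31.5% of all tested genes. The 9 with a row summed to 95.6 to 102 FPKM with panobinostat and 62.1 to 65.3 FPKM with vehicle. Of that sum LUM, which rose, was 42.4 ± 1.09 FPKM with panobinostat and 0.654 ± 0.102 FPKM with vehicle. The 3 that fell were PDGFRA, FBLN1 and THY1, with the PDGFRA call lost under 10 of 16 alternatives. The part of these markers was not tested.

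Of 14 growth arrest genes tied to CEBPA and CEBPD, all tested, 5 rose and 6 fell, with a median of -0.12. Among all tested genes 33.7% rose and 31.5% fell. GADD45B, a stress sensor, had 285 counts with panobinostat and 1 with vehicle, a depth-scaled ratio of 277 (49.4 to 11000), and passed the filter on low counts through the panobinostat arm. GADD45A rose by 0.79, whereas GADD45G fell by 0.70. CDK6, the G1 kinase that CEBPA protein binds, fell to 222 ± 35.3 CPM with panobinostat, against 507 ± 30.0 CPM with vehicle (log2 -1.19 ± 0.10, adjusted p = 8.41e-08), and E2F1 fell by 0.64. MYC rose by 0.98 (adjusted p = 0.013), a call lost without vehicle library C (0.84, adjusted p = 0.0621) and when panobinostat library A was left out (0.77, adjusted p = 0.058).

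CEBPZ was set beside its own partners in ribosome assembly. Of 20 listed, all were tested, and 15 fell and 1 rose, with a median of -0.45. The shares over all tested genes were 31.5% that fell and 33.7% that rose. BRIX1, a factor of the large subunit, fell to 59.1 ± 5.80 CPM with panobinostat, against 107 ± 11.5 CPM with vehicle (log2 -0.85 ± 0.09, adjusted p = 1.68e-06). PPAN fell by 0.86, RRP1 by 0.82 and PES1 by 0.81. NOC3L and NOC4L, which have counterparts in the Noc family of yeast, fell by 0.50 and 0.59, and NOC2L, the partner of Noc1 in yeast, did not pass at -0.15. FBL, the methyltransferase fibrillarin, was the gene that rose, by 0.26. CEBPZ itself, at -0.38, was close to the median of this list, but also to the lower quartile of all tested genes, -0.402. Of those genes 4234 had a lower log2 fold change than CEBPZ. With upper quartile scaling CEBPZ came to -0.24, and its arms overlapped there and in FPKM.

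**Figure D4:**
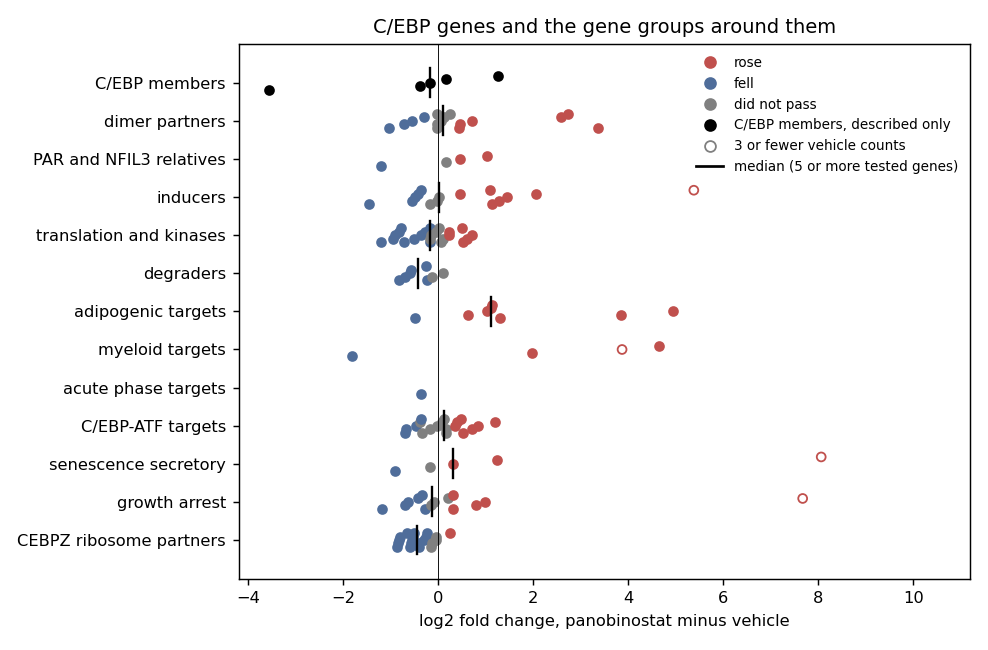
Log2 fold change (panobinostat minus vehicle) of each tested gene in the C/EBP genes and the 12 lists around them, with red for genes that rose, blue for genes that fell, grey for genes that did not pass and black for C/EBP genes, which are described only. Open circles had 3 or fewer counts over the vehicle libraries, so their fitted values are no bound; black lines are medians of the lists with 5 or more tested genes, from -0.45 for the CEBPZ ribosome partners to 1.12 for the adipogenic targets.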

How the data were processed

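Total RNA was sequenced, and the labels give the arm and letter of each of the 6 libraries. For the deposited counts per gene the authors used featureCounts 1.5.0-p3, by strand (option 2) on Ensembl 84 genes, per the file headers. The submitters' processing notes name featureCounts 1.5.1, Novoalign 2.8, Subread and hg38. Of 9 alignment files in that header, 6 have a column; the others were not used here. FPKM values are those the authors deposited, and were used to compare levels between genes. Symbols and coordinates came from GENCODE 29, which held 22459 of 22718 identifiers.

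The counts went into edgeR 4.0.16 (R 4.3.3): filterByExpr (minimum count 10, minimum total 15), TMM, and the quasi-likelihood test between the arms, with Benjamini-Hochberg adjustment over 16084 genes. The fit was tested on simulated data. The SE is the log2 fold change over the square root of F. Means ± SD are TMM-scaled CPM, and a floor of 3 counts was 0.161 to 0.216 CPM. Floors and 95% counting intervals hold counting error and no other. Within an arm, Spearman's rho between libraries was 0.977 to 0.986, and no 2 libraries agreed within sampling noise (chi-square per gene of 2.64 or more).

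The members and gene lists were chosen with earlier results of these data known, and members carry no p-value. Named genes were the members, up to 4 genes past the threshold per list with a mean of 1 CPM or more, neighbours within 250 kb, 3 genes most like each member, and the 4 most abundant of each marker list. Other list genes in the text, such as ATF4, DDIT3 among the partners, NR3C1, LIFR, IL6ST, RELA, CREB1, CELF1, EIF2AK3, COP1, FBXW7, DGAT2, AGPAT2, SCD, LIPE, CSF1R, LYZ, PHGDH, CHAC1, SESN2, IGFBP5, GADD45G, E2F1, NOC2L, NOC3L, NOC4L, FBL, UPK1B, TP63, FOXA1 and LUM, were chosen after their values were seen. A gene that the rule takes is not reported here. Alternatives were DESeq2 1.42.0, other size factors, other filters, limma 3.58.1 on log2(FPKM + 1) and log2(FPKM + 0.1), the letter as a block, and each library left out. Promoters are RefSeq's (GRCh38.p14).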

Additional observations from a re-analysis of the deposited data

How the results depend on the processing

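No member changed direction under any alternative run. Without 1 library at a time the log2 fold change ran from 1.17 to 1.40 for CEBPA, 0.01 to 0.28 for CEBPB, -3.62 to -3.50 for CEBPD, -0.24 to -0.11 for CEBPG and -0.50 to -0.27 for CEBPZ. With library size alone CEBPD came to -3.45 and CEBPG to -0.06, and with upper quartile factors to -3.43 and -0.03. On log2(FPKM + 1), with and without the filter, CEBPA came to 1.02, CEBPD to -2.67 and CEBPG to -0.05. On log2(FPKM + 0.1) CEBPD came to -3.36 and CEBPG to -0.05. The pseudocount shrinks low genes by construction. Library size alone leaves out the TMM factors, which were 1.028 to 1.046 with panobinostat and 0.956 to 0.971 with vehicle. It moved the median of all genes by 0.11, and upper quartile factors moved that median by 0.14. The cause of shifts beyond these was not tested.

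Over all genes, 5026 to 5575 rose and 4542 to 5093 fell without 1 library, and 4268 to 6890 rose and 3540 to 5471 fell under the other alternatives. In the 12 lists these ranges were 42 to 47 and 50 to 55, and 38 to 53 and 39 to 61. Genes that rose were 51.7% of the genes called and 45.0% in the lists, against 63.2% and 57.6% with upper quartile factors and 64.7% and 55.6% on unfiltered log2(FPKM + 1). Of 155 called list and neighbour genes, 31 had another call under at least 1 alternative.

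The labels do not say whether libraries of the same letter belong together. Deviations of same-letter libraries correlated at 0.081, -0.021 and 0.104, and those of different letters at -0.119 to 0.047. Not every library correlated best with its own letter, and these values do not settle whether the letters are paired. With the letter as a replicate block 5432 genes rose and 5109 fell, 46 and 53 in the lists, and CEBPD stood at -3.57. Depth limits CEBPD most, at 30 to 46 counts per panobinostat library.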
